A study of Mus musculus with 18 samples.

Results

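67NR is a mouse mammary tumour cell line that grows as a primary tumour without metastasizing. *Kmt2c* knockout (KO) 67NR cells were compared with wild type (WT) 67NR cells across all expressed genes, with 3 RNA sequencing libraries of each genotype. These 6 libraries, chosen by the cell line and genotype in their labels, are part of a set of 18. The study sequenced poly(A) RNA of 3 genotypes (WT, *Kmt2c* KO, *Kmt2d* KO) in 67NR and in a related line, 168FARN, to ask how loss of either histone methyltransferase changes gene expression. The 3 *Kmt2d* KO libraries of 67NR enter here as the nearest other genotype. All cells were grown in DMEM with foetal bovine serum, glutamine, non-essential amino acids and antibiotics. Each knockout was made by transient transfection of Cas9 with 3 guide RNAs against exon 1 of the gene, and the transfection and sorting were carried out 3 times. The *Kmt2c* KO cells are therefore a sorted pool and not a clone. The study's sequencing of the target showed that part of the *Kmt2c* reads of 67NR stayed unmutated, a larger part than for *Kmt2d*, so that intact alleles were still present in the pool. All 3 *Kmt2c* KO libraries come from that pool, collected about a passage apart, so that loss of the gene and a property of the pool cannot be told apart. The p-values below measure the spread between these collections. The labels call the 67NR controls WT and do not say whether they received a control guide RNA.

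KMT2C and its paralog KMT2D are the catalytic subunits of COMPASS-type complexes that place a single methyl group on lysine 4 of histone H3, mainly at enhancers. The same complexes hold KDM6A, a demethylase that removes the repressive trimethyl mark from lysine 27 of histone H3. Enhancers that carry these marks drive the genes by which one cell type differs from another, and *KMT2C* is among the chromatin genes often mutated in breast cancer.

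The 3 guides used against *Kmt2c* are shown because they say which stretch of the gene was cut. They are taken from the oligonucleotide list of the study and were matched to mm9, the genome build of the deposited counts, with the protospacer in lower case and the adjacent PAM in capitals.
sg1: tctttgcgaggccggccccgAGG
sg2: ggtgactaggatgtcgtcggAGG
sg3: ggggaagcgccatctttgcgAGG
The gene is read from the minus strand of chromosome 5, on which each guide had 1 match, within the first exon (25004208 to 25004601). The sg2 site (25004359 to 25004378, minus strand) spans the start codon at 25004366 to 25004368, and its expected cut lies after coding base 7. The sg1 site (25004241 to 25004260, plus strand) and the sg3 site (25004229 to 25004248, plus strand) are coding throughout, with expected cuts after coding bases 111 and 123, so that 116 bases lie between the outermost cuts. Small deletions there leave nearly all of the transcript to be counted, so the mRNA level does not check the edit. That level, in CPM (counts scaled to the size of the library) and in the order of replicates 1, 2 and 3, was 88.9, 95.7 and 85.5 CPM in *Kmt2c* KO libraries against 56.9, 63.1 and 54.6 CPM in WT libraries. Every KO library was above every WT library, and the gene passed the test as higher (log2 fold change 0.63, standard error 0.14, edgeR adjusted p = 0.00669). Its log2 fold change was 0.58, under the threshold of 0.6, when either WT replicate 3 or *Kmt2c* KO replicate 2 was left out. The mRNA of the paralog *Kmt2d* did not pass the test (log2 fold change 0.46, standard error 0.23, edgeR adjusted p = 0.16), but passed as higher without *Kmt2c* KO replicate 3. *Kdm6a* passed it at a log2 fold change of 0.61, close to the threshold of 0.6, and lost that call in 4 of 15 other settings.

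The 6 libraries held 40951775 to 79251530 reads assigned to genes. Replicate 3 stood apart from replicates 1 and 2 in both genotypes, and deviations from the group mean correlated at 0.601 to 0.655 between WT and *Kmt2c* KO libraries of the same number. Across numbers, replicates 1 and 2 of WT and KO correlated at 0.468 and 0.397, and replicate 3 with another number at -0.639 to -0.546. The replicate number was therefore taken to pair these libraries. Counts with it as a block are given where they differ by over 1.5 times in a list described below. With the block, 21.3% of all tested genes were called higher and 19.9% lower, and such counts are to be read against these shares. The block fit also held the *Kmt2d* KO libraries. Their replicates 1 and 2 correlated with WT at 0.611 and 0.702 across numbers, and at 0.568 and 0.49 within them. Luminal markers of the mammary gland were present in all 6 libraries, at a sum of 2200 to 3650 CPM over 7 genes in WT and 577 to 897 CPM in *Kmt2c* KO libraries, and 6 of the 7 were lower in the KO. *Elf5*, a defining luminal gene, was at or near 0 in every library. The 6 basal markers summed to 10.4 to 24.1 CPM in WT and 0.639 to 2.78 CPM in KO libraries, with *Krt14* and *Trp63* lower and *Krt5* at 0. Leukocyte markers summed to 21.8 to 36.3 CPM in WT and 24.1 to 73.1 CPM in KO libraries over 7 genes, most of it *Cd68*, which passed the test, as higher, only in fits without *Kmt2c* KO replicate 3, with *Ptprc* and *Adgre1* at or near 0. *Lyz2* (0.0901 to 0.533 CPM in WT, 1.27 to 4.14 CPM in the KO) and *Cd79a* (at most 0.0901 and 0.581 CPM) were called higher. Both erythroid markers were at 0, and the 5 endothelial markers summed to 0.45 to 0.716 CPM in WT and 1.54 to 2.3 CPM in the knockout. The 3 adipocyte markers summed to 0.258 to 1.08 CPM in WT and 8.33 to 12.1 CPM in the knockout, nearly all of it *Fabp4*. Fibroblast markers summed to 13.3 to 19.8 CPM in WT and 134 to 229 CPM in *Kmt2c* KO libraries, with 4 of 6 higher in the KO, nearly all of it *Pdgfra*. *Thy1* was at 0 and *Col1a1* did not pass the test, with 1.18, 1.26 and 4.46 CPM in WT and 0.734, 0.9199 and 2.49 CPM in KO libraries, but passed as lower with the block. The part of these markers in the results below was not tested, and in such bulk libraries fewer cells of a type and less RNA per cell cannot be told apart.

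*Kmt2c* KO cells differed from WT cells at over 1 in 3 expressed genes, in nearly equal numbers in each direction. Of 13665 genes tested, 2445 (17.9%) were higher and 2384 (17.4%) lower in the knockout, in all 35.3%, by the quasi-likelihood test of edgeR, adjusted after Benjamini and Hochberg. A call needed an adjusted p below 0.1 together with a log2 fold change above 0.6 in size. These shares are the background against which every gene group below is to be read. The knockout and WT libraries did not overlap in 2377 of the higher and 2264 of the lower genes, which a call by itself favours. Over all tested genes, every knockout library was above every WT library in 23.8% and below in 23.5%. More genes passed 8-fold upward than downward, 776 against 334, whereas 1786 were at least 2-fold higher and 1741 at least 2-fold lower. The median log2 fold change was -0.02 over all tested genes, 1.75 over the higher and -1.65 over the lower genes.

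Ranked by p-value, the leading higher genes were at low levels in WT cells and well expressed in the knockout, as the plot of leading genes shows. *Ric3*, a chaperone of nicotinic acetylcholine receptors, was at 1.04, 1.18 and 1.17 CPM in WT libraries and 37.2, 39.7 and 44.2 CPM in KO libraries (log2 fold change 5.16, standard error 0.19, edgeR adjusted p = 1.68e-06). *Cadm1*, an immunoglobulin-type adhesion molecule (chromosome 9, 47338256 to 47665720 in mm9), rose from 6.17, 6.93 and 4.75 CPM to 173, 178 and 169.5 CPM (log2 fold change 4.87, standard error 0.18, edgeR adjusted p = 1.68e-06). For *Epb41l3*, which links membrane proteins to the actin skeleton, the WT libraries held 7.07, 9.31 and 7.497 CPM and the KO libraries 191, 185 and 227 CPM (log2 fold change 4.66, standard error 0.18, edgeR adjusted p = 1.68e-06). The leading genes were picked from called genes whose KO and WT libraries do not overlap, so the gap between genotypes is part of the choice. Ranking by p likewise favours genes whose libraries are close to each other. Protein kinase C beta (*Prkcb*, log2 fold change 5.01), the magnesium transporter *Slc41a2* (3.84), the homeobox factor *Irx5* (4.57), the heparan sulfate sulfotransferase *Hs3st3b1* (5.70), the endocytic adaptors *Sh3gl3* (5.02) and *Sgip1* (5.68) and the uncharacterized gene *1700012B09Rik* (5.70) completed the 10, each with an adjusted p of 1.52e-06 to 2.04e-06 in edgeR.

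**Figure D1:**
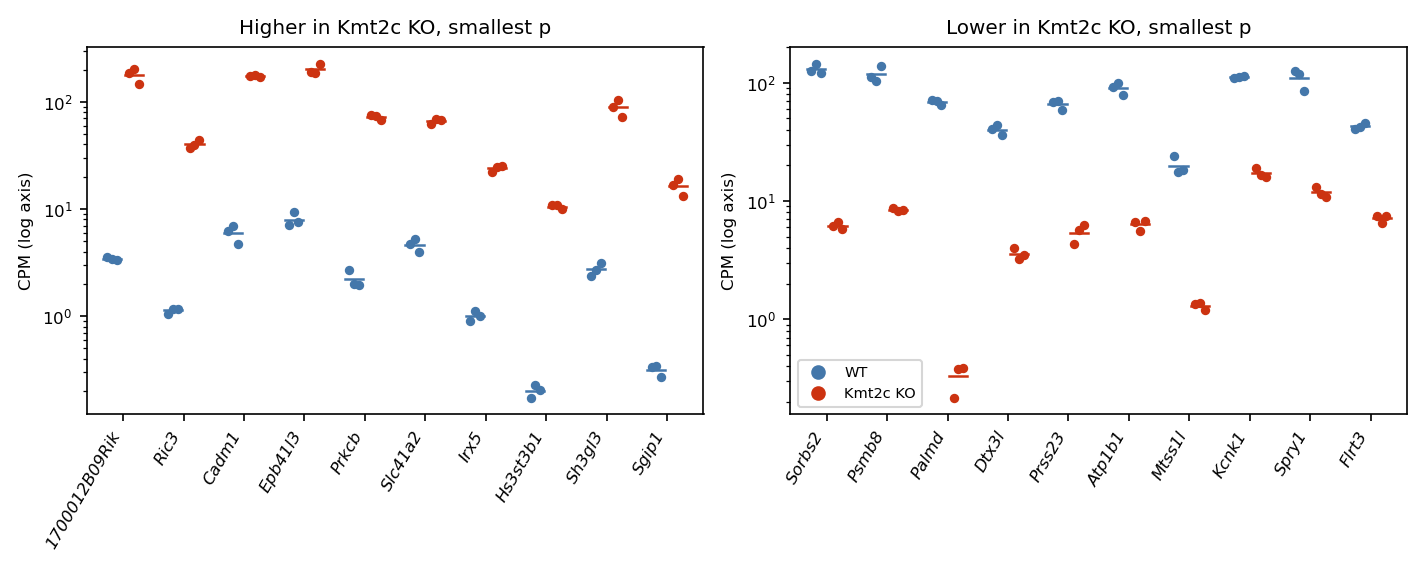
Level of the 10 higher (left) and 10 lower (right) genes that lead by p-value, shown for each WT (blue) and *Kmt2c* KO (red) library, in CPM on a log axis, with bars at the group means. All 20 genes were picked from called genes in which the 2 genotypes do not overlap. *Palmd* falls from above 60 CPM in WT to under 0.4 CPM in the knockout.

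The leading lower genes, ranked in the same way, lost moderate levels of mRNA. *Sorbs2*, an adaptor of the actin cytoskeleton, was at 125, 145 and 122 CPM in WT libraries and 6.1, 6.63 and 5.83 CPM in KO libraries (log2 fold change -4.40, standard error 0.19, edgeR adjusted p = 2.04e-06). *Palmd*, which encodes the membrane-associated protein palmdelphin (chromosome 3, 116621174 to 116671905 in mm9), had 71.5, 70.1 and 64.4 CPM in WT against 0.217, 0.381 and 0.387 CPM in the knockout (log2 fold change -7.72, standard error 0.37, edgeR adjusted p = 2.68e-06). The secreted serine protease *Prss23* was at 69.04, 70.3 and 58.8 CPM in WT and 4.32, 5.66 and 6.24 CPM in KO libraries. The same choice among genes without overlap applied to these genes. The sodium pump subunit *Atp1b1* (log2 fold change -3.84), the potassium channel *Kcnk1* (-2.71), the receptor kinase inhibitor *Spry1* (-3.22), the leucine-rich transmembrane protein *Flrt3* (-2.58), *Mtss1l* (-3.93), the immunoproteasome subunit *Psmb8* (-3.81) and *Dtx3l* (-3.49) also fell.

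The largest gains among genes with at least 10 CPM on average in the knockout included secreted and receptor proteins. *Fgf10*, a fibroblast growth factor that acts on epithelia, was at 0.405, 0.401 and 0.135 CPM in WT libraries and 60.1, 61.8 and 37.2 CPM in KO libraries (log2 fold change 7.33, standard error 0.48, edgeR adjusted p = 8.32e-06). *Il1rl1*, the receptor for interleukin 33, stood at 4.48, 5.77 and 1.94 CPM and 567, 628 and 389 CPM (log2 fold change 7.01, standard error 0.49, edgeR adjusted p = 1.19e-05). *Colec10*, a secreted collagen-like lectin, had 0.185, 0.0573 and 0.0901 CPM in WT and 37.7, 42.7 and 14.8 CPM in the knockout (log2 fold change 8.07, standard error 0.58, edgeR adjusted p = 1.45e-05). In all 3 genes the third KO library was the lowest of the knockout, and a lack of overlap with WT was part of the choice. The largest losses by the same rule included *Postn*, the matrix protein periostin, at 59.4, 67.6 and 92.7 CPM in WT and 0.0272, 0 and 0.145 CPM in the knockout, where only 8 reads were counted over the 3 libraries. *Dhrs3*, a retinaldehyde reductase, fell in every pair (log2 fold change -8.81, standard error 1.13, edgeR adjusted p = 0.000373). The coagulation factor *F5* fell from 35.8, 42.3 and 2.27 CPM to 0.163, 0.159 and 0 CPM. WT replicate 3 was far below the other WT libraries for *F5*.

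Among the most abundant genes that changed at least 2-fold, the intermediate filament vimentin (*Vim*) rose from 256, 282 and 1269 CPM to 2679, 2701 and 4389 CPM (log2 fold change 2.43, standard error 0.63, edgeR adjusted p = 0.0156), with the third library the highest of each genotype. The lysosomal protein prosaposin (*Psap*) rose from 589, 490.4 and 357 CPM to 1697, 1407 and 871 CPM. Fibronectin (*Fn1*) went the other way, from 5684, 5524 and 1831 CPM to 1419, 1204 and 703 CPM (log2 fold change -1.97, standard error 0.44, edgeR adjusted p = 0.00761). Beta-catenin (*Ctnnb1*), which serves both in adherens junctions and in Wnt signalling, fell from 1294, 1450 and 1099 CPM to 437, 460.3 and 533 CPM (log2 fold change -1.43, standard error 0.18, edgeR adjusted p = 0.000305). Annexin A1 (*Anxa1*, log2 fold change -1.33) and the methionine salvage enzyme *Mtap* (-1.12) were also lower.

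Few genes were switched entirely. With silence taken as under 0.1 CPM in every library of one genotype and over 5 CPM in every library of the other, 2 genes were silent in WT and 3 in the knockout. *Wdfy4*, which takes part in antigen cross-presentation by dendritic cells (chromosome 14, 33772733 to 33998694 in mm9), had 3 reads over the 3 WT libraries and 1672 over the 3 *Kmt2c* KO libraries, which is 8.97, 8.45 and 11.6 CPM. The long noncoding RNA *Tbx3os2* had 6 reads in WT and 1370 in the knockout, and as it is not known whether reads were counted by strand, reads of overlapping transcripts may be among them. *H19*, an imprinted noncoding RNA of chromosome 7, had 2493 reads in WT and 2 in the knockout, with 14.6, 11.2 and 10.04 CPM in WT libraries. *2310007B03Rik* had 5883 reads in WT and 2 in the knockout, and *Pigr*, the epithelial transporter of polymeric immunoglobulins, 1753 and 10. At looser limits of 0.5 and 2 CPM, 106 genes were silent in WT and 49 in the knockout.

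Across 48 lists of genes of a shared pathway or function, the share of members called ranged widely, as the plot of gene lists shows. Tight junction and desmosome genes, interferon-stimulated genes, mammary lineage factors, Hox genes and genes of MHC class I presentation had the largest shares of lower members. Adhesion molecules of the immunoglobulin and cadherin type, feedback and early response genes of the ERK pathway, collagen cross-linking enzymes, matrix glycoproteins and p53 targets had the largest shares of higher members. Oxidative phosphorylation, constitutive proteasome and Polycomb lists had fewer calls than the background in both directions. Besides the members named for their p-values, some members are named for what they are known to do, and these were chosen after their values were seen. Where edgeR called no member of a list in one direction below, DESeq2 called none either. At an unadjusted p under 0.05, the edgeR test then gave 1 higher member in the MHC class I list (*B2m*) and 1 in the ATF4 list, 1 lower member in the proteasome list, and 0 in the junction, mitosis, replication, G1, ribosome and sterol lists.

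**Figure D2:**
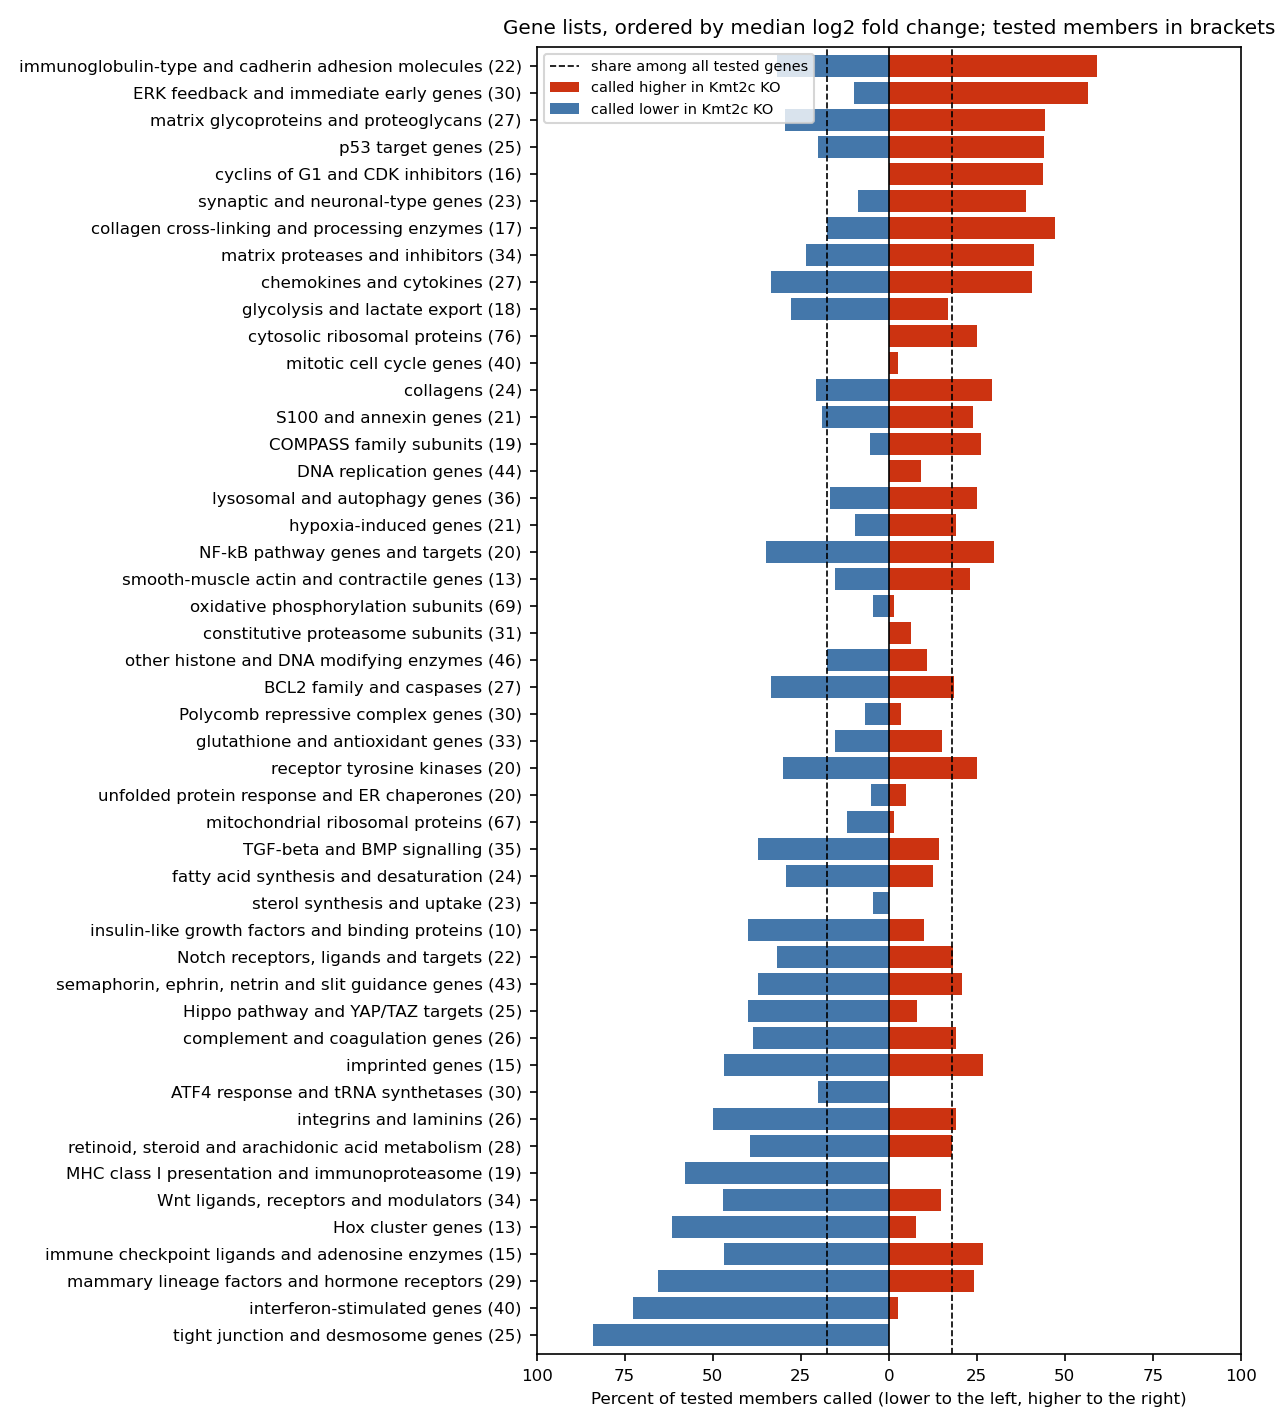
Percent of the tested members of each of 48 gene lists that were called higher (red, to the right) or lower (blue, to the left) in *Kmt2c* KO cells, ordered by the median log2 fold change of the list. The dashed lines mark the shares over all tested genes, 17.9% higher and 17.4% lower.

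Interferon-stimulated genes, which encode antiviral effectors and the factors that induce them, were lower in the knockout as a group. Of 40 tested members, 29 were called lower and 1 higher, or 28 and 2 with the replicate block. The median log2 fold change was -1.79 against -0.02 over all genes. In 32 members every *Kmt2c* KO library was below every WT library, which held for 23.5% of all tested genes. *Oasl2*, an antiviral protein of the oligoadenylate synthetase family, fell from 35.8, 37.1 and 54.95 CPM to 1.85, 1.05 and 1.55 CPM (log2 fold change -4.84, standard error 0.29, edgeR adjusted p = 5.44e-06). *Ifit1*, which binds viral RNA, had 12.8, 15.1 and 25.9 CPM in WT and 0.842, 0.825 and 1.26 CPM in the knockout (log2 fold change -4.21, standard error 0.34, edgeR adjusted p = 2.60e-05). *Dtx3l*, a ubiquitin ligase that works with PARP9, fell from 40.5, 43.7 and 35.9 CPM to 3.98, 3.22 and 3.48 CPM (log2 fold change -3.49, standard error 0.17, edgeR adjusted p = 2.74e-06). For *Oasl2* and *Ifit1* the third WT library was the highest, and no library of one genotype overlapped the other.

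The members that carry interferon signals did not all move alike. *Irf9*, the DNA-binding subunit of the interferon-activated factor ISGF3, fell from 19.8, 20.4 and 12.8 CPM to 5.71, 4.504 and 4.67 CPM (log2 fold change -1.83, standard error 0.24, edgeR adjusted p = 0.000373). *Irf1* fell from 153, 134 and 174 CPM to 80.7, 77.4 and 68.4 CPM (log2 fold change -1.02, standard error 0.16, edgeR adjusted p = 0.00119). *Irf7*, which amplifies the response, fell from 7.48, 5.77 and 8.64 CPM to 0.774, 1.01 and 1.404 CPM (log2 fold change -2.78, standard error 0.31, edgeR adjusted p = 0.000161). The viral RNA sensor *Ddx58* did not pass the test, at 34.1, 40.4 and 49.3 CPM and 35.95, 35.4 and 25.9 CPM. *Ifit2* was the 1 higher member, with 25.2, 29.8 and 36.9 CPM in WT and 40.4, 44.6 and 94.4 CPM in the knockout (log2 fold change 0.97, standard error 0.35, edgeR adjusted p = 0.06), and lost its call when WT replicate 1, WT replicate 2 or *Kmt2c* KO replicate 3 was left out. Near-identical neighbours in this list, such as *Oas1a* with *Oas1g* and *Ifit3* with *Ifit3b*, may share reads.

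Promoters of many interferon-stimulated genes are known to hold the element that ISGF3 and other interferon regulatory factors bind, and a few are shown so that the shared letters can be seen. In the 300 bases from 250 before to 50 after each RefSeq gene start (GRCm38.p6), the motif GAAANNGAAA was searched on both strands, where it reads TTTCNNTTTC on the other. Each line gives 26 bases on the strand of the gene, with the motif in capitals.
*Ifit1*: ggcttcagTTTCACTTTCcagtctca
*Isg15*: aggaaaccGAAACAGAAAatagctct
*Oas3*: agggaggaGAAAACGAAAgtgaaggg
*Gbp2*: tcttttagTTTCACTTTCactgtctt
*Rsad2*: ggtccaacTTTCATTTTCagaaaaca
They lie at chr19:34640777-34640802 (plus strand), chr4:156200867-156200892 (minus), chr5:120777717-120777742 (minus), chr3:142620596-142620621 (plus) and chr12:26456555-26456580 (minus). Several genes hold more than 1 match, and at *Isg15* matches overlap. Of the 30 interferon-stimulated genes with a promoter in the table, 16 (53.3%) held the motif, against 3.99% of all 27025 promoters. Within the list it was in 12 of 22 members called lower (54.5%) and in 4 of 8 of the others. Over all tested genes it was in 4.98% of promoters of genes called lower, 2.98% of those called higher and 3.60% of those not called. A match describes the letters of this window and does not show that a factor is bound there.

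Genes that process peptides for MHC class I fell, while the classical class I chains did not pass the test. Of 19 tested genes, 11 were called lower and none higher by edgeR, with a median log2 fold change of -0.86. *Psmb8*, a catalytic subunit that replaces its constitutive counterpart in the immunoproteasome (chromosome 17, 34334666 to 34338399 in mm9), fell from 112, 104 and 139.6 CPM to 8.72, 8.25 and 8.35 CPM (log2 fold change -3.81, standard error 0.17, edgeR adjusted p = 2.10e-06). *Psmb9*, another such subunit, fell from 16.2, 13.3 and 24.7 CPM to 2.32, 2.16 and 2.83 CPM (log2 fold change -2.89, standard error 0.31, edgeR adjusted p = 0.000118). *Tap2*, a subunit of the peptide transporter into the endoplasmic reticulum, fell from 82.05, 62.6 and 83.7 CPM to 36.1, 29.2 and 18.3 CPM (log2 fold change -1.45, standard error 0.32, edgeR adjusted p = 0.00676). In these genes no KO library reached the lowest WT library. The classical heavy chains *H2-K1* (506, 454 and 387 CPM in WT, 478, 421 and 339.6 CPM in KO) and *H2-D1* (533, 492 and 499 CPM in WT, 515, 559 and 418 CPM in KO) did not pass the test, although reads may be shared among the H2 genes. Their light chain *B2m*, beta-2 microglobulin, had 1231, 1357 and 1337 CPM in WT and 1644, 1901 and 1573 CPM in KO libraries, a log2 fold change of 0.38 under the threshold. *H2-T23*, the mouse homologue of HLA-E, fell from 96.8, 77.7 and 68.4 CPM to 12.4, 9.5 and 8.37 CPM (log2 fold change -3.001, standard error 0.22, edgeR adjusted p = 1.56e-05). Of 31 genes of the constitutive proteasome, 2 were called higher and none lower by edgeR, with a median of -0.07, and both, *Psmd8* and *Psmd13*, lie on chromosome 7.

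**Figure D3:**
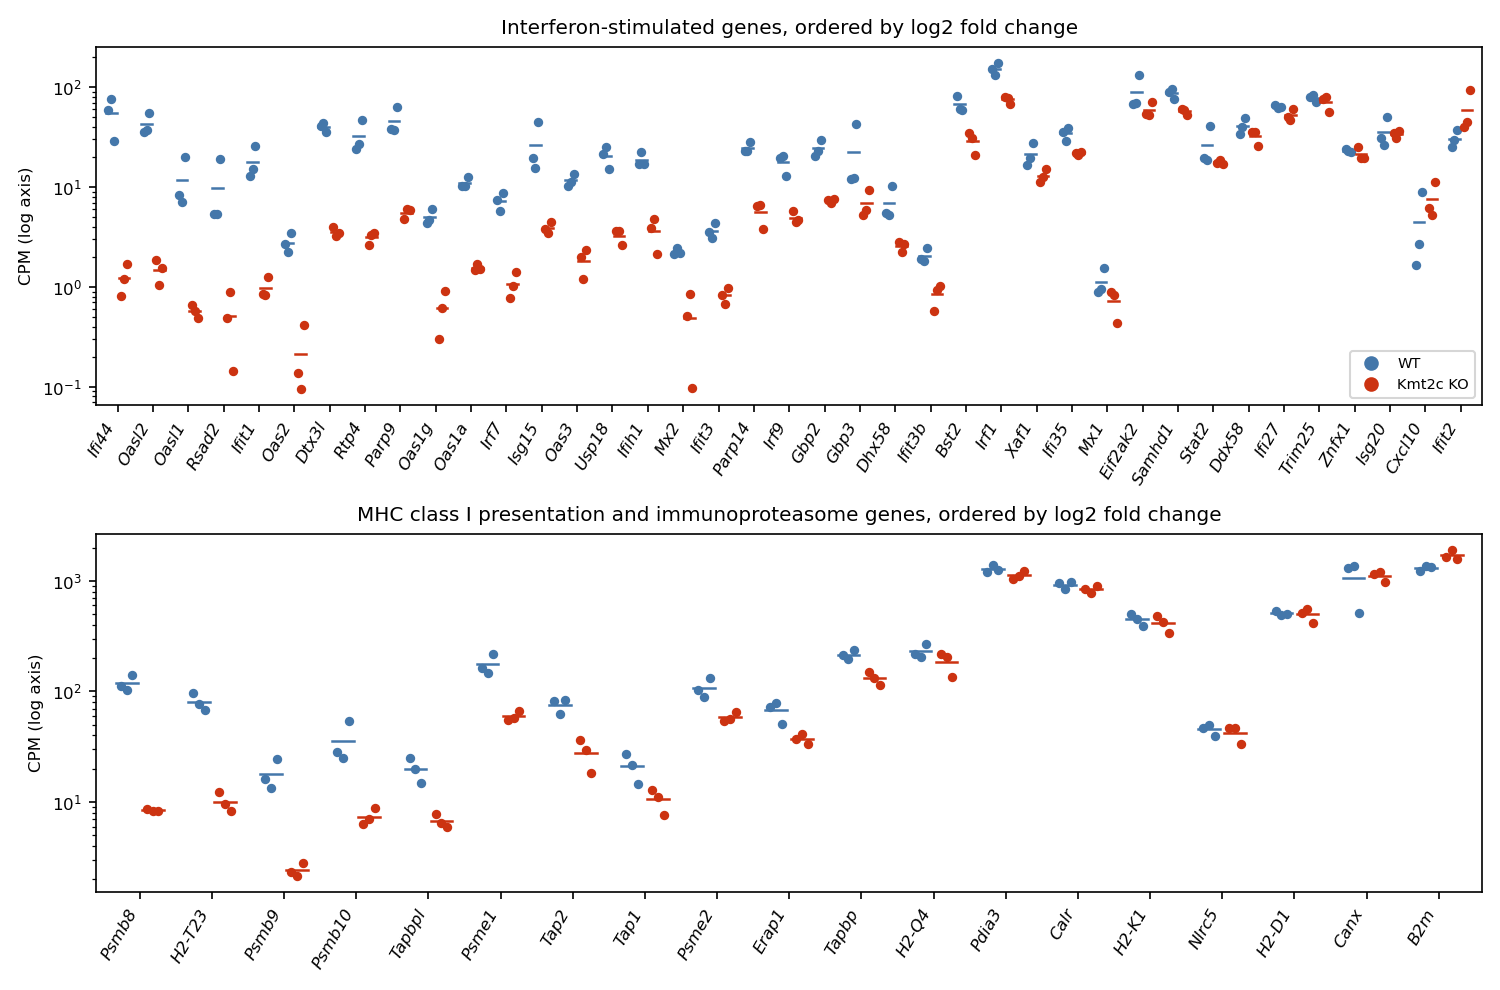
Level in CPM on a log axis of the interferon-stimulated genes (top, with 1 gene of the list not shown) and the 19 genes of MHC class I presentation and the immunoproteasome (bottom) in each WT (blue) and *Kmt2c* KO (red) library, with bars at group means and genes ordered by log2 fold change. The gap between genotypes is widest at the left and closes towards *Ifit2* and *B2m* at the right.

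Chemokines and cytokines were called in both directions, 11 of 27 higher and 9 lower. *Ccl2*, which attracts monocytes, rose from 3.61, 3.897 and 1.37 CPM to 235, 316 and 144 CPM (log2 fold change 6.28, standard error 0.47, edgeR adjusted p = 1.64e-05). The neutrophil attractant *Cxcl1* rose from 353, 427 and 495 CPM to 3556, 4249 and 2603 CPM (log2 fold change 3.03, standard error 0.29, edgeR adjusted p = 6.60e-05). *Il33*, the alarmin that signals through the receptor encoded by *Il1rl1*, rose from 2.48, 3.08 and 1.85 CPM to 46.7, 52.2 and 41.96 CPM (log2 fold change 4.24, standard error 0.23, edgeR adjusted p = 3.62e-06), so that ligand and receptor were both higher. *Cxcl12*, the ligand of CXCR4, rose from 2.94, 2.09 and 2.84 CPM to 20.1, 19.98 and 59.2 CPM (log2 fold change 3.66, standard error 0.52, edgeR adjusted p = 0.000692). *Cxcr4* fell from 4.66, 4.298 and 2.34 CPM to 0.761, 0.349 and 0.339 CPM (log2 fold change -2.95, standard error 0.51, edgeR adjusted p = 0.00417). In the other direction, *Ccl20* fell from 47.6, 54.03 and 12.6 CPM to 2.98, 3.82 and 0.9196 CPM (log2 fold change -3.88, standard error 0.65, edgeR adjusted p = 0.00168). Interleukin 1 alpha (*Il1a*) fell from 206, 245 and 157 CPM to 63.8, 64.04 and 65.1 CPM (log2 fold change -1.66, standard error 0.19, edgeR adjusted p = 0.000175). The granulocyte growth factor *Csf3* fell from 155, 131 and 111 CPM to 49.9, 39.6 and 39.5 CPM (log2 fold change -1.62, standard error 0.19, edgeR adjusted p = 0.000214).

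Genes of the NF-kB pathway and its targets were likewise split, with 6 of 20 higher and 7 lower. The inhibitor *Nfkbia*, itself a target of the pathway, rose from 102, 109 and 303 CPM to 654, 698 and 532 CPM (log2 fold change 1.88, standard error 0.39, edgeR adjusted p = 0.00539), with the third WT library well above the other WT libraries. The subunit *Relb* rose from 22.6, 19.2 and 19.3 CPM to 53.7, 46.7 and 37.95 CPM (log2 fold change 1.18, standard error 0.22, edgeR adjusted p = 0.00322). The vascular adhesion ligand *Vcam1* fell from 117, 136 and 106 CPM to 17.7, 19.4 and 20.98 CPM (log2 fold change -2.63, standard error 0.17, edgeR adjusted p = 7.31e-06). *Icam1*, which binds leukocyte integrins, fell from 14.2, 13.1 and 16.1 CPM to 1.22, 1.14 and 0.871 CPM (log2 fold change -3.74, standard error 0.36, edgeR adjusted p = 6.56e-05).

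Of complement and coagulation genes, 5 of 26 were higher and 10 lower. *Thbd*, the thrombin receptor thrombomodulin, rose from 2.98, 2.88 and 2.12 CPM to 40.4, 37.8 and 39.8 CPM (log2 fold change 3.88, standard error 0.19, edgeR adjusted p = 2.87e-06). The thrombin receptor gene *F2r* (log2 fold change -1.38) and the pathway inhibitor *Tfpi* (-1.89) were lower.

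Among immune checkpoint ligands and adenosine enzymes, 4 of 15 were higher and 7 lower, with a median log2 fold change of -1.33. *Nt5e*, the ectoenzyme CD73 that makes extracellular adenosine, fell from 308, 359 and 115 CPM to 49.0, 54.4 and 26.9 CPM (log2 fold change -2.58, standard error 0.51, edgeR adjusted p = 0.00412). The adenosine receptor *Adora2b* rose from 1.27, 0.974 and 0.4503 CPM to 13.9, 15.96 and 21.5 CPM (log2 fold change 4.22, standard error 0.38, edgeR adjusted p = 4.62e-05). *Cd276*, a B7 family ligand, fell from 73.2, 63.3 and 71.8 CPM to 18.6, 15.5 and 10.2 CPM (log2 fold change -2.23, standard error 0.24, edgeR adjusted p = 0.000141). *Cd274*, which encodes PD-L1, fell from 10.7, 12.2 and 5.81 CPM to 4.86, 4.58 and 1.96 CPM (log2 fold change -1.33, standard error 0.54, edgeR adjusted p = 0.0859). The phagocytosis checkpoint *Cd47* fell from 207, 244 and 220.2 CPM to 112, 126 and 148 CPM (log2 fold change -0.80, standard error 0.15, edgeR adjusted p = 0.00351). The costimulatory ligand *Cd80* rose, at a low level, from 0.324, 0.143 and 0.135 CPM to 3.79, 4.04 and 2.01 CPM.

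Matrix genes were called in both directions within each class, beside 17.9% higher and 17.4% lower over all genes. Of 27 matrix glycoproteins and proteoglycans, 12 were higher (44.4%) and 8 lower (29.6%), with a median log2 fold change of 0.82. *Vcan*, the large proteoglycan versican, rose from 2.69, 3.29 and 1.53 CPM to 47.1, 51.4 and 45.5 CPM (log2 fold change 4.25, standard error 0.27, edgeR adjusted p = 7.92e-06). *Sparc*, a collagen-binding glycoprotein, rose from 252, 259.7 and 346 CPM to 788, 791 and 1620 CPM (log2 fold change 1.90, standard error 0.35, edgeR adjusted p = 0.00286). Thrombospondin 1 (*Thbs1*) fell from 1053, 1067 and 1583 CPM to 65.5, 66.9 and 151 CPM (log2 fold change -3.71, standard error 0.53, edgeR adjusted p = 0.000713). Agrin (*Agrn*), a proteoglycan of basement membranes, fell from 237, 214 and 254 CPM to 71.3, 65.96 and 58.01 CPM (log2 fold change -1.85, standard error 0.18, edgeR adjusted p = 6.45e-05). The fall of periostin and fibronectin is given above, and the summed level of the 27 genes was 6207 to 10990 CPM in WT and 5892 to 6709 CPM in the knockout.

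Collagens were called higher in 7 (29.2%) and lower in 5 (20.8%) of 24 tested genes. *Col5a3* rose from 1.89, 2.42 and 1.69 CPM to 40.01, 27.8 and 22.97 CPM (log2 fold change 3.92, standard error 0.26, edgeR adjusted p = 1.00e-05). *Col5a1*, of the same fibril collagen, rose from 28.9, 20.6 and 28.7 CPM to 67.1, 49.9 and 77.3 CPM (log2 fold change 1.31, standard error 0.26, edgeR adjusted p = 0.00422). Type VII collagen (*Col7a1*), which anchors basement membrane to the matrix below, fell from 136, 104 and 188 CPM to 33.9, 25.4 and 41.4 CPM (log2 fold change -2.09, standard error 0.31, edgeR adjusted p = 0.000852). *Col4a3* had no read in WT. Enzymes that process and cross-link collagen were higher in 8 and lower in 3 of 17 genes. The lysyl oxidase *Loxl1* rose from 2.61, 2.02 and 2.34 CPM to 28.5, 25.5 and 33.6 CPM (log2 fold change 3.65, standard error 0.24, edgeR adjusted p = 8.11e-06). The procollagen protease *Adamts14* rose from 13.8, 10.3 and 11.3 CPM to 89.7, 75.7 and 56.6 CPM (log2 fold change 2.65, standard error 0.22, edgeR adjusted p = 2.85e-05). The procollagen protease *Bmp1* (log2 fold change -1.44) and the prolyl hydroxylase *P4ha2* (-1.56) were lower.

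Matrix proteases and their inhibitors were higher in 14 and lower in 8 of 34 genes. The neighbouring metalloproteases of chromosome 9 did not move together. *Mmp10* rose from 4.66, 3.97 and 3.87 CPM to 90.9, 91.7 and 27.1 CPM (log2 fold change 4.07, standard error 0.48, edgeR adjusted p = 0.000224), with the third KO library the lowest. *Mmp3* rose from 24.1, 24.97 and 13.9 CPM to 126, 134 and 52.6 CPM (log2 fold change 2.31, standard error 0.36, edgeR adjusted p = 0.00114). The collagenase *Mmp13* fell from 272, 304 and 36.9 CPM to 13.99, 14.9 and 10.4 CPM (log2 fold change -3.96, standard error 0.66, edgeR adjusted p = 0.00164). *Mmp15*, a membrane-bound metalloprotease, fell from 35.03, 29.1 and 18.9 CPM to 0.516, 0.634 and 0.387 CPM (log2 fold change -5.74, standard error 0.42, edgeR adjusted p = 1.45e-05). The protease inhibitor *Serpine2* fell from 48.2, 49.1 and 17.9 CPM to 4.92, 4.996 and 2.86 CPM (log2 fold change -3.17, standard error 0.42, edgeR adjusted p = 0.000452).

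Integrins and laminins, the receptors and ligands that tie cells to basement membrane, were lower in 13 and higher in 5 of 26 genes, with a median log2 fold change of -0.73. *Itgb6*, an epithelial integrin subunit that activates TGF-beta, had 14.8 to 16.5 CPM in WT and fell to 0.666, 1.08 and 0.532 CPM (log2 fold change -4.36, standard error 0.32, edgeR adjusted p = 1.45e-05). *Itgb4*, an integrin subunit of hemidesmosomes, fell from 37.1, 27.7 and 45.5 CPM to 18.9, 11.1 and 17.3 CPM (log2 fold change -1.22, standard error 0.33, edgeR adjusted p = 0.0183). The fibronectin receptor subunit *Itga5* rose from 41.6, 34.7 and 44.4 CPM to 202, 165 and 131 CPM (log2 fold change 2.05, standard error 0.19, edgeR adjusted p = 4.96e-05). *Itgav* rose from 256, 267 and 250.3 CPM to 425, 494 and 520.0 CPM (log2 fold change 0.90, standard error 0.13, edgeR adjusted p = 0.00088).

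Tight junction and desmosome genes had the largest share of lower members of any list: 21 of 25 were lower and none higher, with a median log2 fold change of -1.92, and the called members lay between -3.44 and -0.94. *Perp*, a desmosomal tetraspan protein, fell from 369, 400.4 and 359.9 CPM to 76.99, 78.7 and 71.2 CPM (log2 fold change -2.32, standard error 0.16, edgeR adjusted p = 9.62e-06). Occludin (*Ocln*) fell from 83.7, 94.2 and 69.5 CPM to 15.3, 17.1 and 10.02 CPM (log2 fold change -2.54, standard error 0.23, edgeR adjusted p = 4.52e-05). The tricellular junction gene *Marveld2* fell from 32.4, 35.6 and 46.9 CPM to 6.11, 8.31 and 6.73 CPM (log2 fold change -2.44, standard error 0.20, edgeR adjusted p = 2.60e-05). *Tjp3*, a junction scaffold, fell from 26.8, 20.7 and 18.1 CPM to 3.15, 2.33 and 2.03 CPM (log2 fold change -3.12, standard error 0.25, edgeR adjusted p = 2.52e-05). Claudin 4 (*Cldn4*) fell from 465, 395 and 483 CPM to 111, 92.5 and 40.7 CPM (log2 fold change -2.46, standard error 0.44, edgeR adjusted p = 0.00251). Claudin 7 (*Cldn7*) fell from 73.5, 62.2 and 72.8 CPM to 22.3, 18.5 and 14.2 CPM. The third KO library was the lowest for *Cldn4*, and all 3 lay under every WT library. E-cadherin (*Cdh1*), the cadherin of adherens junctions, fell from 492, 504 and 449 CPM to 77.4, 75.1 and 54.8 CPM (log2 fold change -2.80, standard error 0.19, edgeR adjusted p = 1.10e-05).

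Other adhesion molecules were mostly higher. Of 22 tested genes of the immunoglobulin and cadherin families, 13 were higher and 7 lower, with a median log2 fold change of 0.93. N-cadherin (*Cdh2*) rose from 8.19, 9.53 and 14.8 CPM to 156, 164 and 284 CPM (log2 fold change 4.22, standard error 0.38, edgeR adjusted p = 4.59e-05). Protocadherin 7 (*Pcdh7*) rose from 7.34, 8.22 and 2.75 CPM to 203, 219 and 154 CPM (log2 fold change 4.97, standard error 0.41, edgeR adjusted p = 2.65e-05). *L1cam*, a neuronal-type adhesion molecule, rose from 2.34, 2.06 and 5.47 CPM to 12.4, 10.7 and 11.8 CPM (log2 fold change 1.83, standard error 0.41, edgeR adjusted p = 0.00822). Nectin 2 (*Pvrl2*) fell from 102, 85.9 and 80.6 CPM to 31.8, 26.7 and 37.3 CPM (log2 fold change -1.49, standard error 0.17, edgeR adjusted p = 0.000165). The laminin receptor *Bcam* fell from 12.5, 10.2 and 10.3 CPM to 1.18, 0.444 and 1.45 CPM (log2 fold change -3.43, standard error 0.43, edgeR adjusted p = 0.000313).

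Guidance genes of the semaphorin, ephrin, netrin and slit families were lower in 16 and higher in 9 of 43. Semaphorins were called in both directions, and of the ephrins and Eph receptors called, all but *Epha2* fell. *Sema7a*, a membrane-anchored ligand of integrins and plexins, rose from 33.1, 27.2 and 23.6 CPM to 498, 382 and 384 CPM (log2 fold change 3.91, standard error 0.24, edgeR adjusted p = 6.88e-06). *Sema5a* rose from 31.1, 35.4 and 31.7 CPM to 171, 173 and 128 CPM (log2 fold change 2.27, standard error 0.17, edgeR adjusted p = 1.53e-05). The ephrin *Efnb2* fell from 222, 225 and 194 CPM to 46.5, 43.0 and 35.8 CPM (log2 fold change -2.35, standard error 0.17, edgeR adjusted p = 1.48e-05). The receptor *Epha1* fell from 37.7, 30.4 and 35.5 CPM to 7.17, 5.44 and 4.43 CPM (log2 fold change -2.60, standard error 0.23, edgeR adjusted p = 4.09e-05). Of 13 contractile genes, 3 were higher and 2 lower. The muscle intermediate filament desmin (*Des*) rose from 2.84, 1.73 and 1.53 CPM to 34.2, 26.2 and 31.7 CPM (log2 fold change 3.91, standard error 0.26, edgeR adjusted p = 1.00e-05).

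In the Hippo pathway and its YAP and TAZ targets, 10 of 25 genes were lower and 2 higher. *Ctgf*, a widely used target of YAP, fell from 405, 462 and 362 CPM to 3.38, 3.46 and 57.1 CPM (log2 fold change -4.27, standard error 1.18, edgeR adjusted p = 0.0209), with the third KO library well above the other KO libraries. *Cyr61*, its close relative, did not pass the test at 419.8, 456 and 969 CPM and 431, 460.0 and 1196 CPM (log2 fold change 0.18, standard error 0.47, edgeR adjusted p = 0.807). The receptor kinase *Axl* rose from 409, 412 and 399.6 CPM to 1117, 1044 and 1580 CPM (log2 fold change 1.62, standard error 0.19, edgeR adjusted p = 0.000249). *Wwtr1*, which encodes TAZ, rose from 458, 498 and 310.0 CPM to 958, 1102 and 634 CPM (log2 fold change 1.09, standard error 0.27, edgeR adjusted p = 0.0132). *Tead2*, a DNA-binding partner of both coactivators, fell from 78.5, 65.3 and 86.5 CPM to 27.5, 22.1 and 22.6 CPM (log2 fold change -1.67, standard error 0.18, edgeR adjusted p = 0.000108).

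TGF-beta and BMP genes were lower in 13 and higher in 5 of 35. The ligand *Bmp7* fell from 72.01, 68.3 and 47.05 CPM to 12.8, 9.99 and 10.5 CPM (log2 fold change -2.49, standard error 0.24, edgeR adjusted p = 6.52e-05). The coreceptor endoglin (*Eng*) fell from 50.3, 41.7 and 40.03 CPM to 11.9, 10.1 and 9.22 CPM (log2 fold change -2.08, standard error 0.19, edgeR adjusted p = 5.08e-05). The coreceptor *Tgfbr3*, betaglycan, rose from 19.2, 17.1 and 5.94 CPM to 138, 138 and 117 CPM (log2 fold change 3.22, standard error 0.39, edgeR adjusted p = 0.000257). Wnt genes were lower in 16 and higher in 5 of 34, with a median log2 fold change of -1.03. The receptor *Fzd6* fell from 196, 202 and 229 CPM to 44.02, 40.3 and 28.6 CPM (log2 fold change -2.47, standard error 0.19, edgeR adjusted p = 1.64e-05). The inhibitor *Sfrp1* fell from 47.9, 51.2 and 70.1 CPM to 7.73, 7.23 and 10.4 CPM (log2 fold change -2.74, standard error 0.28, edgeR adjusted p = 8.80e-05). The ligand *Wnt9a* fell from 25.1, 19.7 and 24.4 CPM to 1.005, 1.13 and 0.194 CPM (log2 fold change -4.86, standard error 0.52, edgeR adjusted p = 0.000124). *Notum*, a secreted enzyme that inactivates Wnt ligands, rose from 5.51, 4.38 and 1.87 CPM to 18.3, 15.6 and 12.9 CPM (log2 fold change 1.99, standard error 0.35, edgeR adjusted p = 0.0024).

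Receptor tyrosine kinases were called in both directions, 5 of 20 higher and 6 lower. *Fgfr1* rose from 14.02, 12.7 and 8.73 CPM to 163, 142 and 133 CPM (log2 fold change 3.62, standard error 0.21, edgeR adjusted p = 5.06e-06), while *Fgfr2*, the receptor for FGF10 in epithelia, had 7.95, 7.45 and 4.3 CPM and 9.54, 8.64 and 7.16 CPM and did not pass the test. The platelet-derived growth factor receptor *Pdgfra* rose from 10.8, 12.7 and 14.6 CPM to 208, 215 and 126 CPM (log2 fold change 3.84, standard error 0.28, edgeR adjusted p = 1.55e-05). *Egfr* fell from 2.72, 3.07 and 2.18 CPM to 0.299, 0.159 and 0.242 CPM (log2 fold change -3.50, standard error 0.53, edgeR adjusted p = 0.000941). *Erbb3* fell from 15.4, 13.5 and 8.51 CPM to 7.83, 6.74 and 2.396 CPM (log2 fold change -1.14, standard error 0.44, edgeR adjusted p = 0.0779). Notch genes were higher in 4 and lower in 7 of 22, with *Notch4* rising from 1.53, 1.12 and 3.85 CPM to 15.9, 14.9 and 15.3 CPM and the Notch target *Nrarp* falling from 16.2, 15.6 and 18.4 CPM to 3.88, 3.46 and 3.53 CPM. Of 10 insulin-like growth factor genes, 4 were lower and 1 higher, and the binding protein *Igfbp7* fell from 554, 502 and 377 CPM to 76.6, 73.1 and 96.1 CPM (log2 fold change -2.54, standard error 0.21, edgeR adjusted p = 2.77e-05).

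Feedback and early response genes of the ERK pathway rose in 17 of 30 members and fell in 3, or 17 and 5 with the block, with a median log2 fold change of 0.88. The AP-1 subunit *Jun* rose from 109, 101.3 and 127 CPM to 771, 748 and 616 CPM (log2 fold change 2.66, standard error 0.18, edgeR adjusted p = 1.00e-05). Its partner *Fosl1* rose from 40.95, 35.3 and 86.2 CPM to 388, 326 and 362 CPM (log2 fold change 2.73, standard error 0.32, edgeR adjusted p = 0.000212). Other AP-1 genes went the other way. *Jund* fell from 489.5, 470.2 and 619.5 CPM to 183, 168 and 145 CPM (log2 fold change -1.67, standard error 0.18, edgeR adjusted p = 0.000135). *Fos* fell from 28.8, 35.6 and 24.5 CPM to 6.55, 7.03 and 12.9 CPM (log2 fold change -1.75, standard error 0.29, edgeR adjusted p = 0.00145). The phosphatase *Dusp6*, induced by ERK and acting on it, rose from 109.7, 117 and 108 CPM to 312, 361 and 285 CPM (log2 fold change 1.52, standard error 0.14, edgeR adjusted p = 4.70e-05). The ETS factor *Etv4* rose from 35.8, 33.8 and 53.8 CPM to 109.6, 94.3 and 120.4 CPM (log2 fold change 1.39, standard error 0.25, edgeR adjusted p = 0.00239). *Spry1*, a feedback inhibitor in the same list, fell from 126, 119 and 85.4 CPM to 13.1, 11.6 and 10.8 CPM.

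Targets of p53 rose in 11 of 25 members and fell in 5, with a median log2 fold change of 0.81. With the replicate block 14 were higher, beside 21.3% of all genes in that fit. Without all libraries numbered 3, 16 were higher, in a fit that called 3186 of 13851 genes higher. The CDK inhibitor *Cdkn1a* rose from 42.3, 34.9 and 11.4 CPM to 267, 239.5 and 153 CPM (log2 fold change 2.89, standard error 0.47, edgeR adjusted p = 0.00135). The p53 antagonist *Mdm2* rose from 111, 122 and 60.2 CPM to 387, 442 and 174 CPM (log2 fold change 1.77, standard error 0.43, edgeR adjusted p = 0.0118). *Ccng1* rose from 88.03, 97.9 and 86.4 CPM to 391, 472 and 362 CPM (log2 fold change 2.17, standard error 0.21, edgeR adjusted p = 7.91e-05). In all 3 genes the third library was the lowest of each genotype. The ectodysplasin receptor *Eda2r* rose from 4.18, 5.99 and 1.76 CPM to 109.8, 124 and 66.5 CPM (log2 fold change 4.65, standard error 0.50, edgeR adjusted p = 0.000124). *Perp*, given above, and the death receptor *Fas* belong to the list and were lower. *Fas* fell from 74.8, 89.04 and 61.1 CPM to 19.2, 25.0 and 10.96 CPM (log2 fold change -2.03, standard error 0.45, edgeR adjusted p = 0.00771). Of 16 G1 cyclins and CDK inhibitors, 7 rose and none fell by edgeR, or 1 fell with the replicate block. *Cdkn2a*, which encodes p16 and p19ARF, rose from 1.101, 0.817 and 0.7204 CPM to 10.9, 9.69 and 10.2 CPM (log2 fold change 3.53, standard error 0.27, edgeR adjusted p = 1.63e-05). Cyclin D1 (*Ccnd1*) rose from 796, 717 and 1084 CPM to 1689, 1540 and 1774 CPM (log2 fold change 0.95, standard error 0.23, edgeR adjusted p = 0.011). The higher genes of this list thus included both inhibitors and cyclins.

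Mitotic genes differed widely between replicates. The summed level of 40 mitotic genes was 1150, 1203 and 7344 CPM in WT and 2808, 2756 and 7442 CPM in *Kmt2c* KO libraries, so that the third library of each genotype was far above the rest. Within replicates 1 and 2 the knockout was above WT, and within replicate 3 the genotypes were close. Without the pairing, 1 of the 40 genes passed the edgeR test as higher and none as lower. When the replicate number entered as a block, 28 were higher and none lower, beside 21.3% higher and 19.9% lower over all genes. In 16 of the 40 the knockout was higher in every pair and in none was it lower in every pair. Over all tested genes each of these held for 35.6%. Without all libraries numbered 3, 37 were higher, beside 3186 higher and 2940 lower of 13851 genes in that fit. The proliferation marker *Mki67* had 43.4, 47.6 and 533 CPM in WT and 443, 383 and 812 CPM in KO libraries (log2 fold change 2.23, edgeR adjusted p = 0.0178 with the block). Topoisomerase II alpha (*Top2a*) had 119.8, 126 and 799 CPM and 263, 249.7 and 815 CPM (log2 fold change 0.71, edgeR adjusted p = 0.00856 with the block), and *Ccnb1*, the mitotic cyclin B1, 20.3, 20.3 and 165 CPM and 40.7, 45.04 and 156 CPM (log2 fold change 0.66, edgeR adjusted p = 0.0274 with the block). In *Top2a* and *Ccnb1* the third pair differed little.

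DNA replication genes showed the same order of libraries with a smaller gap. The sum over 44 genes was 1616, 1645 and 4462 CPM in WT and 1862, 1921 and 4509 CPM in KO libraries. By edgeR 4 were higher and none lower, and with the replicate block 12 were higher and 1 lower. That fit called 21.3% of all genes higher and 19.9% lower. *Ccne2*, cyclin E2, rose from 3.63, 4.13 and 7.61 CPM to 16.3, 20.9 and 14.8 CPM (log2 fold change 1.76, standard error 0.31, edgeR adjusted p = 0.00237). The helicase subunit *Mcm5* had 35.8, 31.4 and 94.98 CPM and 26.2, 22.1 and 87.05 CPM and did not pass the test with the block (edgeR adjusted p = 0.112).

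**Figure D4:**
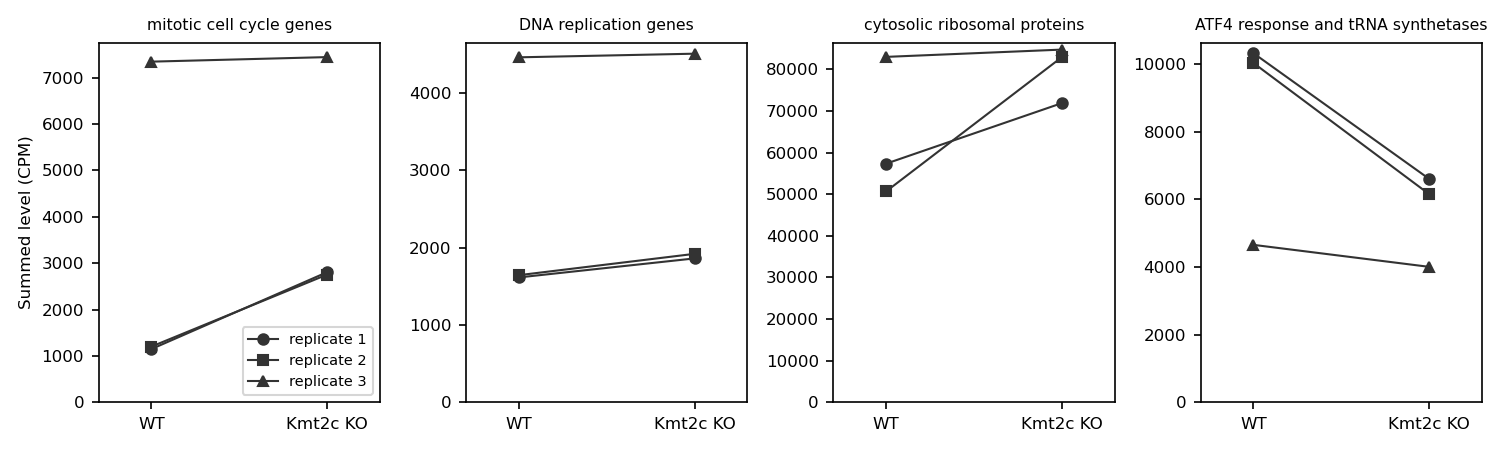
Summed level, in CPM, of 4 gene lists in the WT and *Kmt2c* KO library of each replicate number, joined by a line. In mitotic, replication and ribosomal genes the third pair (triangles) is high in both genotypes and nearly level, while pairs 1 and 2 rise. In genes of the ATF4 response pairs 1 and 2 fall steeply from 10320 and 10030 CPM, and the third starts at 4656 CPM.

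Genes of the amino acid response under ATF4 and of tRNA charging depended on the pairing too. By edgeR 6 of 30 were lower and none higher, with a median log2 fold change of -0.68. With the replicate block 15 were lower and 1 higher, beside 19.9% lower and 21.3% higher over all genes in that fit. Without all libraries numbered 3, 20 were lower and 1 higher, beside 2940 lower and 3186 higher of 13851 genes in that fit. The sums were 10320, 10030 and 4656 CPM in WT and 6603, 6152 and 4006 CPM in the knockout. *Eprs*, a tRNA synthetase, fell from 932, 1025 and 715 CPM to 462, 430.0 and 399 CPM (log2 fold change -1.05, standard error 0.23, edgeR adjusted p = 0.00709). *Psph*, the last enzyme of serine synthesis, fell from 121, 124 and 68.9 CPM to 38.6, 43.2 and 32.6 CPM (log2 fold change -1.46, standard error 0.32, edgeR adjusted p = 0.00702). Asparagine synthetase (*Asns*) had 519.6, 519 and 169 CPM and 301, 279 and 148 CPM (log2 fold change -0.61, edgeR adjusted p = 0.00979 with the block). The mRNA of *Atf4* itself did not pass the test, at 919.5, 874 and 399.9 CPM and 870.3, 832 and 474 CPM. Of 20 genes of the unfolded protein response, 1 was higher and 1 lower, or 2 and 3 with the block. The chaperone *Hspa5* had 7621, 8764 and 1782 CPM in WT and 4954, 5145 and 1402 CPM in KO libraries, and in every pair the knockout was lower (log2 fold change -0.57, edgeR adjusted p = 0.0359 with the block, under the fold threshold).

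Ribosomal protein genes were called higher in 19 of 76 and lower in none by edgeR, with a median log2 fold change of 0.32. Their calls were modest in size, from 0.60 to 0.93. Of the 14 members on chromosome 7, 10 were higher, and of the 62 elsewhere, 9 were. With each gene's fold change taken relative to the median of its chromosome, 6 were higher. The count was 21 with the replicate block. It was 36 without all libraries numbered 3, in a fit that called 3186 of 13851 genes higher. Leaving out WT replicate 1, 2 or 3 gave 7, 6 and 40 higher, and leaving out *Kmt2c* KO replicate 2 or 3 gave 8 and 7. *Rps3*, on chromosome 7, had 1308, 1162 and 1369 CPM in WT and 1998, 2516 and 2479 CPM in KO libraries (log2 fold change 0.87, standard error 0.16, edgeR adjusted p = 0.00301), and *Rps6*, on chromosome 4, 966, 880.2 and 921 CPM and 1639, 1895 and 1615 CPM (log2 fold change 0.90, standard error 0.15, edgeR adjusted p = 0.00149). Mitochondrial ribosomal proteins were lower in 8 and higher in 1 of 67, with a median of -0.22, and with fold changes relative to the chromosome 2 were lower. With the block they were lower in 8 and higher in 4. Of 69 oxidative phosphorylation subunits, 1 was higher and 3 lower, or 5 and 3 with the block. Of 23 genes of sterol synthesis and uptake none was higher and 1 lower by edgeR, or 1 and 5 with the block.

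Glycolysis and lactate export were called higher in 3 and lower in 5 of 18 genes. Hexokinase 2 (*Hk2*), the entry enzyme, fell from 223, 218 and 181 CPM to 97.3, 88.8 and 85.8 CPM (log2 fold change -1.19, standard error 0.17, edgeR adjusted p = 0.000779). The lactate transporter *Slc16a1* fell from 263, 286 and 259.8 CPM to 129, 141 and 163 CPM (log2 fold change -0.90, standard error 0.13, edgeR adjusted p = 0.00088). The B subunit of lactate dehydrogenase (*Ldhb*) fell from 7.59, 6.42 and 6.73 CPM to 1.005, 0.888 and 1.31 CPM (log2 fold change -2.70, standard error 0.26, edgeR adjusted p = 6.63e-05). *Pgk1* rose from 274, 278 and 284 CPM to 439, 468 and 1001 CPM (log2 fold change 1.19, standard error 0.38, edgeR adjusted p = 0.0386), with the third KO library over 2-fold above the others, and lost the call without that library, WT replicate 1 or WT replicate 2. Of 21 hypoxia-induced genes, 4 were higher and 2 lower, or 5 and 4 with the block. Adrenomedullin (*Adm*), a secreted vasodilator, rose from 3.19, 2.95 and 3.602 CPM to 18.1, 18.8 and 49.7 CPM (log2 fold change 3.15, standard error 0.43, edgeR adjusted p = 0.000556). In fatty acid synthesis 3 of 24 were higher and 7 lower. The desaturase *Scd1* rose from 64.9, 68.2 and 114 CPM to 168, 165 and 164 CPM (log2 fold change 1.01, standard error 0.21, edgeR adjusted p = 0.00552). The elongase *Elovl7* fell from 148, 178 and 80.4 CPM to 29.2, 32.2 and 12.1 CPM (log2 fold change -2.47, standard error 0.46, edgeR adjusted p = 0.00309).

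Lysosomal and autophagy genes were higher in 9 and lower in 6 of 36. *Hexa*, a subunit of the enzyme that degrades GM2 ganglioside, rose from 3.67, 3.17 and 2.14 CPM to 76.9, 67.5 and 67.8 CPM (log2 fold change 4.56, standard error 0.23, edgeR adjusted p = 2.91e-06), the largest gain of the list. The cholesterol exporter *Npc1* rose from 22.01, 23.1 and 14.9 CPM to 98.2, 101.4 and 58.1 CPM (log2 fold change 2.10, standard error 0.29, edgeR adjusted p = 0.000554). The protease cathepsin C (*Ctsc*) fell from 50.9, 55.4 and 42.6 CPM to 9.89, 11.1 and 4.55 CPM (log2 fold change -2.54, standard error 0.40, edgeR adjusted p = 0.00115). Glutathione and antioxidant genes were called in equal numbers, 5 of 33 in each direction. Peroxiredoxin 6 (*Prdx6*) fell from 372, 372 and 396 CPM to 147, 143 and 137 CPM (log2 fold change -1.42, standard error 0.12, edgeR adjusted p = 3.85e-05). Sulfiredoxin (*Srxn1*) rose from 36.5, 37.03 and 42.6 CPM to 107, 102 and 122 CPM (log2 fold change 1.51, standard error 0.15, edgeR adjusted p = 8.68e-05). Of 27 genes of the BCL2 family and caspases, 5 were higher and 9 lower. *Bcl2* fell from 204, 221 and 89.8 CPM to 55.9, 59.4 and 58.9 CPM (log2 fold change -1.56, standard error 0.30, edgeR adjusted p = 0.00371). Its relative *Mcl1* rose from 189.9, 210.0 and 216 CPM to 352, 388 and 330.2 CPM (log2 fold change 0.80, standard error 0.14, edgeR adjusted p = 0.00184).

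Polycomb genes were called far less often than the 35.3% of all genes, and COMPASS and other chromatin genes at closer to that share. COMPASS subunits were called higher in 26.3% and lower in 5.26%, against 17.9% and 17.4% over all genes. Of 19 COMPASS family subunits 5 were higher and 1 lower, all near the fold threshold except 1, and the higher ones included *Kmt2c* itself, *Kdm6a* and *Setd1a* (log2 fold change 0.69, standard error 0.15, edgeR adjusted p = 0.00703), whose call was lost without WT replicate 2. With the block 5 were higher and none lower. With fold changes relative to the chromosome, 3 were higher and none lower. Polycomb genes were higher in 1 and lower in 2 of 30, or 3 and 3 with the block. *Ezh2*, the Polycomb methyltransferase of histone H3 lysine 27, had 78.1, 93.8 and 165 CPM in WT and 84.5, 95.8 and 146 CPM in KO libraries and did not pass the test (log2 fold change -0.05, standard error 0.35, edgeR adjusted p = 0.932). *Pcgf6*, a subunit of a variant Polycomb complex, fell from 48.1, 55.1 and 55.9 CPM to 13.6, 14.7 and 7.02 CPM (log2 fold change -2.17, standard error 0.26, edgeR adjusted p = 0.000267). Among 46 other modifiers, 5 were higher and 8 lower. The deacetylase *Hdac9* rose from 0.0927, 0.115 and 0 CPM to 10.2, 11.5 and 15.03 CPM (log2 fold change 7.28, standard error 0.55, edgeR adjusted p = 1.79e-05). The lysine 36 methyltransferase *Nsd1* fell from 16.3, 15.3 and 21.1 CPM to 4.33, 3.35 and 1.86 CPM (log2 fold change -2.46, standard error 0.34, edgeR adjusted p = 0.000536). The DNA demethylation enzyme *Tet1* fell from 1.84, 2.49 and 2.03 CPM to 0.217, 0.1903 and 0.2904 CPM (log2 fold change -3.19, standard error 0.40, edgeR adjusted p = 0.000311).

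Hox cluster genes, which keep positional identity under COMPASS and Polycomb control, were lower in 8 and higher in 1 of 13, with a median log2 fold change of -1.32. In the HoxA cluster, *Hoxa5* fell from 251, 268 and 608 CPM to 36.2, 35.7 and 66.9 CPM (log2 fold change -3.02, standard error 0.52, edgeR adjusted p = 0.00191). *Hoxa10* fell from 48.9, 51.5 and 87.4 CPM to 9.29, 8.72 and 9.196 CPM (log2 fold change -2.79, standard error 0.27, edgeR adjusted p = 6.52e-05). For *Hoxa5* the third library was the highest of each genotype. *Hoxb4* was the member that rose, from 0.405, 0.501 and 0.9005 CPM to 13.1, 13.3 and 11.2 CPM (log2 fold change 4.40, standard error 0.33, edgeR adjusted p = 1.63e-05). Imprinted genes were lower in 7 and higher in 4 of 15. *Plagl1*, a growth-restraining zinc finger factor, fell from 6.62, 5.92 and 5.79 CPM to 0.109, 0.0317 and 0.0484 CPM (log2 fold change -6.50, standard error 0.61, edgeR adjusted p = 5.89e-05), with 12 reads over the KO libraries. *Zrsr1* rose from 1.09, 1.06 and 1.31 CPM to 24.5, 25.8 and 31.0 CPM (log2 fold change 4.56, standard error 0.22, edgeR adjusted p = 2.68e-06). *Igf2*, the coding neighbour of *H19*, did not pass the test, with 0.741, 1.03 and 0.158 CPM in WT and 0.516, 0.476 and 0.581 CPM in KO libraries. *Igf2r* (232, 229.5 and 225 CPM in WT, 163, 147 and 119 CPM in KO) overlaps the antisense gene *Airn*, and their reads may not be told apart. Its call was lost without *Kmt2c* KO replicate 3.

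Mammary lineage factors and hormone receptors were lower in 19 and higher in 7 of 29, with a median log2 fold change of -1.60. The epithelial factor *Grhl2* fell from 62.1, 61.8 and 68.9 CPM to 22.02, 19.4 and 17.6 CPM (log2 fold change -1.71, standard error 0.15, edgeR adjusted p = 3.79e-05). The ETS factor *Elf3* fell from 46.4, 38.6 and 61.3 CPM to 11.1, 7.502 and 8.47 CPM (log2 fold change -2.43, standard error 0.23, edgeR adjusted p = 5.65e-05). The luminal factor *Foxa1* fell from 12.7, 14.1 and 14.4 CPM to 3.21, 4.22 and 1.11 CPM (log2 fold change -2.26, standard error 0.51, edgeR adjusted p = 0.00808). The oestrogen receptor *Esr1* fell from 16.7, 17.5 and 7.18 CPM to 3.22, 2.57 and 2.396 CPM (log2 fold change -2.34, standard error 0.47, edgeR adjusted p = 0.00475). The casein gene *Csn3* rose from 26.2, 25.8 and 15.9 CPM to 99.7, 108 and 95.2 CPM (log2 fold change 2.15, standard error 0.20, edgeR adjusted p = 5.89e-05). The growth hormone receptor *Ghr* rose from 136, 150.2 and 66.5 CPM to 463, 514 and 366 CPM (log2 fold change 1.93, standard error 0.31, edgeR adjusted p = 0.00124). The calls of *Krt8*, *Gata3* and *Krt14* were each lost without the third WT library, in which these genes were highest, and in 3 to 5 further settings each.

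Synaptic and neuronal-type genes rose in 9 of 23 members and fell in 2, with a median of 0.59. *Nrxn2*, a presynaptic receptor, rose at a low level from 0.162, 0.172 and 0.0901 CPM to 1.28, 1.17 and 1.65 CPM (log2 fold change 3.22, standard error 0.48, edgeR adjusted p = 0.000819). The microtubule protein *Map2* fell from 99.2, 103 and 83.7 CPM to 45.9, 48.9 and 48.5 CPM (log2 fold change -0.995, standard error 0.14, edgeR adjusted p = 0.000704). Of 21 S100 and annexin genes, 5 rose and 4 fell, or 9 and 4 with the replicate block. *S100a4* rose from 95.8, 82.8 and 540.5 CPM to 900.4, 1101 and 2867 CPM (log2 fold change 2.76, standard error 0.89, edgeR adjusted p = 0.0396), and the third library was several-fold above the others in both genotypes. This call was lost without WT replicate 1, WT replicate 2 or *Kmt2c* KO replicate 3. *Anxa3* fell from 1158, 1261 and 859 CPM to 365, 408 and 483 CPM (log2 fold change -1.38, standard error 0.21, edgeR adjusted p = 0.000865). Of 28 genes of retinoid, steroid and arachidonic acid metabolism, 5 were higher and 11 lower. The retinol dehydrogenase *Rdh10*, which acts against *Dhrs3* in the same pathway, fell from 200.2, 217 and 149 CPM to 22.8, 23.7 and 24.1 CPM (log2 fold change -3.002, standard error 0.29, edgeR adjusted p = 6.60e-05). The retinoic acid hydroxylase *Cyp26b1* rose from 1.31, 1.404 and 0.495 CPM to 8.34, 6.33 and 5.88 CPM (log2 fold change 2.66, standard error 0.38, edgeR adjusted p = 0.000702). The prostaglandin E synthase *Ptges* rose from 27.6, 23.9 and 15.3 CPM to 233, 202 and 121 CPM (log2 fold change 3.06, standard error 0.32, edgeR adjusted p = 0.000102). *Aldh1a3*, which makes retinoic acid, had no read in WT.

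The changes were unevenly spread over chromosomes. On chromosome 7, 34.4% of 1003 tested genes were called higher and 11.1% lower, with a median log2 fold change of 0.48, whereas off chromosome 7 the shares were 16.3% and 18.3% and the median -0.06. The shift covered the whole chromosome: in 10 consecutive windows of about 100 genes the median ran from 0.40 to 0.63. Median differences from the WT mean, over genes with a mean of at least 1 CPM and on the log2(CPM + 1) scale, were 0.041, -0.065 and 0.033 in WT and 0.451, 0.367 and 0.494 in *Kmt2c* KO libraries. An exact permutation test of these medians, two-sided, gave p = 0.1, the smallest that 3 against 3 libraries allow, as it did on 13 of 20 chromosomes, so that it sets chromosome 7 apart from none of these. The *Kmt2d* KO libraries stood at 0.269, 0.338 and 0.347. In 45.0% of the genes of chromosome 7 every KO library was above every WT library, against 23.8% over all chromosomes. Genes named above that lie there include *Ric3*, *Prkcb*, *Sh3gl3*, *Axl* and *Rps3* among the higher and *H19*, *Prss23* and *Ctsc* among the lower ones.

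Chromosomes 1 and 8 were shifted the other way along their length. The median was -0.31 on chromosome 1 and -0.29 on chromosome 8, and all 7 windows of each were below 0. Every window was also below 0 on chromosomes 9, 16 and 17, and above 0 on chromosomes 18 and 19. For the *Kmt2d* KO against WT, window medians ran from -0.312 to 0.014 on chromosome 1 and from -0.254 to -0.184 on chromosome 8. On chromosome 10 and the X chromosome the direction changed along the chromosome. The first window of chromosome 10 (3134304 to 38853720 in mm9) had a median of -0.70 with 8 genes higher and 55 lower, and the fifth (86152954 to 117606053) a median of 0.40. On the X chromosome the second window (45894802 to 91369041) had a median of 0.73 with 54 genes higher and 3 lower, and the fourth (132277272 to 166443668) -0.43 with 14 higher and 31 lower. For the *Kmt2d* KO against WT, these windows had medians of -0.348 and 0.364 on chromosome 10 and 0.483 and -0.182 on the X chromosome. Copy number was not measured in these data, and its part in these values was not tested. With fold changes taken relative to the median of each chromosome, the calls of the interferon and junction lists stayed at 29 and 21 lower members.

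**Figure D5:**
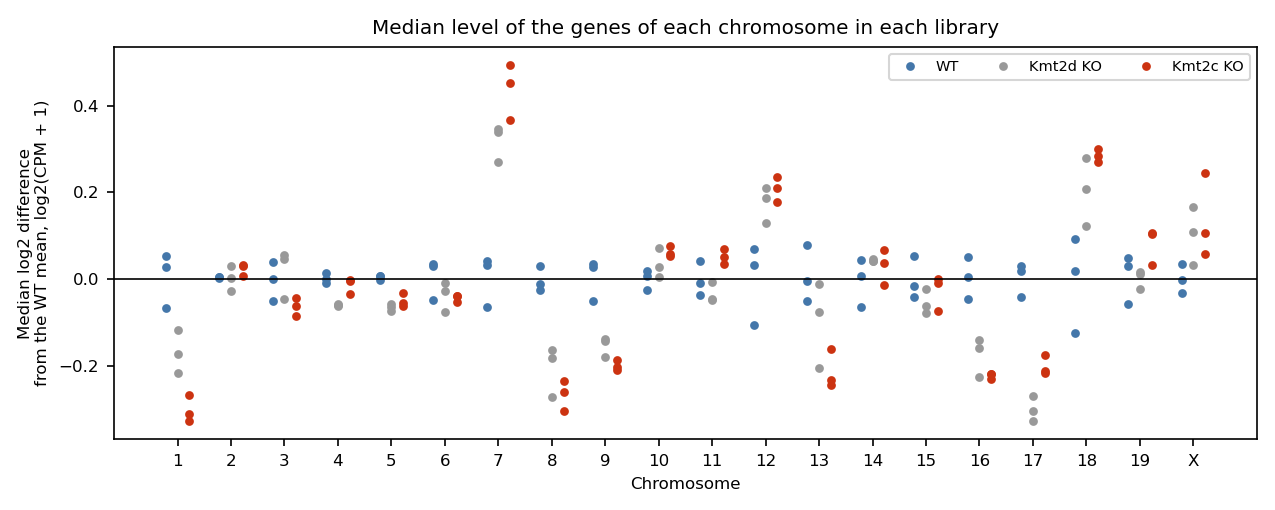
Median over the genes of each chromosome of the log2 difference from the WT mean, on the log2(CPM + 1) scale, with 1 point per WT (blue), *Kmt2d* KO (grey) and *Kmt2c* KO (red) library. On chromosome 7 the *Kmt2c* KO libraries lie at 0.367 to 0.494 and the WT libraries at -0.065 to 0.041.

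Set against *Kmt2d* KO cells of the same line, *Kmt2c* KO cells differed at few genes in the edgeR fit of all 9 libraries without the block. Where they did in that fit, they were mostly lower. The direct edgeR contrast called 193 of 13665 genes (1.41%), of which 175 were lower and 18 higher in the *Kmt2c* KO. Of the 175, 172 were also lower than WT in the *Kmt2c* KO, 1 was higher than WT and 2 were not called. Of the 18, 15 were higher than WT and 3 lower. These counts depended on the fit and on single libraries. DESeq2 called 452 lower and 116 higher, and edgeR without all libraries numbered 3 called 1051 lower and 692 higher of 13851 genes. Without *Kmt2c* KO replicate 1, 2 or 3 the counts were 55, 39 and 79 lower and 3, 3 and 12 higher. Without *Kmt2d* KO replicate 1 or 2 they were 51 and 58 lower, and 3 higher each time. With the replicate block they were 779 lower and 217 higher. Between these genotypes the libraries numbered 3 correlated at 0.834, and at -0.777 to -0.71 with other numbers. Libraries 1 and 2 correlated more across numbers (0.734 and 0.705) than within them (0.536 and 0.591). The number therefore sets replicate 3 apart but does not pair replicates 1 and 2. One library of the *Kmt2d* KO, replicate 3, had 15685049 of its 54566649 reads on the ribosomal RNA gene *Rn45s*. Without that library the counts were 193 lower and 17 higher.

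For the lower genes with the smallest p in this contrast, the *Kmt2d* KO libraries lay between WT and the *Kmt2c* KO. *Psmb8* was at 32.96, 34.2 and 28.1 CPM in *Kmt2d* KO libraries, against the WT and *Kmt2c* KO values above (log2 difference -1.91, standard error 0.16, edgeR adjusted p = 0.00458). *Vcam1* was at 77.7, 70.6 and 60.2 CPM (log2 difference -1.84, standard error 0.16, edgeR adjusted p = 0.00458), and *Flrt3*, with 40.3, 42.6 and 45.3 CPM in WT and 7.45, 6.52 and 7.41 CPM in *Kmt2c* KO, at 26.3, 23.3 and 22.8 CPM (log2 difference -1.76, standard error 0.15, edgeR adjusted p = 0.00458). *Kcnk1* had 109.6, 112 and 115 CPM in WT and 18.9, 16.7 and 15.8 CPM after loss of *Kmt2c*, with 56.6, 54.3 and 44.4 CPM after loss of *Kmt2d* (log2 difference -1.59, standard error 0.15, edgeR adjusted p = 0.00517), and *Palmd* 2.75, 2.64 and 4.92 CPM in *Kmt2d* KO (log2 difference -3.40, standard error 0.32, edgeR adjusted p = 0.00517). *Cdh1* at 211, 197 and 154 CPM (log2 difference -1.44, standard error 0.18, edgeR adjusted p = 0.0128), *Perp* at 249, 209.6 and 181 CPM (log2 difference -1.50, standard error 0.15, edgeR adjusted p = 0.0076) and *Marveld2* at 13.9, 14.4 and 14.3 CPM (log2 difference -1.01, standard error 0.19, edgeR adjusted p = 0.0566) followed the same order. Of the interferon list, 6 of 40 were lower in this contrast, among them *Oasl2* at 4.201, 4.43 and 4.305 CPM (log2 difference -1.54, standard error 0.26, edgeR adjusted p = 0.0369), and none was higher by edgeR.

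In the same fit of all 9 libraries, the genes higher in the *Kmt2c* KO than in the *Kmt2d* KO were few. *Wdfy4* had 0.439, 0.345 and 0.641 CPM in *Kmt2d* KO libraries, so that only the *Kmt2c* KO libraries were above 5 CPM (log2 difference 4.35, standard error 0.48, edgeR adjusted p = 0.00954). *Pdha2*, the testis form of a pyruvate dehydrogenase subunit, was at 0.0811, 0.08596 and 0.1801 CPM in WT and 8.67, 9.58 and 12.3 CPM after loss of *Kmt2c*, with 2.25, 1.94 and 1.84 CPM after loss of *Kmt2d* (log2 difference 2.34, standard error 0.30, edgeR adjusted p = 0.0132). *S100a14* was at 7.796, 6.95 and 6.08 CPM in WT and 19.2, 18.02 and 17.5 CPM after loss of *Kmt2c*, with 6.03, 6.86 and 9.302 CPM after loss of *Kmt2d* (log2 difference 1.301, standard error 0.21, edgeR adjusted p = 0.0304), so that the *Kmt2d* KO was near WT. *Cxcr4* had no read in the *Kmt2d* KO libraries, 92 in the *Kmt2c* KO and 806 in WT. Leading gains against WT were also seen in *Kmt2d* KO libraries. *Ric3* was at 34.7, 30.7 and 26.96 CPM and *Cadm1* at 139, 136 and 143 CPM there, and neither passed the direct test (log2 difference 0.39, standard error 0.15, and 0.32, standard error 0.15).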

How the data were processed

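Poly(A) RNA of 67NR cells was sequenced, and the authors deposited raw read counts per gene symbol, made with STAR on mm9 within the VIPER pipeline. The strand setting of the counting and the tool versions are not given in the sources used here. From these counts, edgeR 4.0.16 in R 4.3.3 was run over the 9 libraries of 67NR, which share 1 estimate of the spread, with TMM normalization, filterByExpr, genotype as the only factor, glmQLFit (robust), glmQLFTest and Benjamini-Hochberg adjustment. Of 24360 gene symbols 13665 were tested, with calls made below an adjusted p of 0.1 and above a log2 fold change of 0.6 in size. CPM values use TMM-scaled library sizes. Library totals ran from 40951775 to 79251530 in the 6 libraries compared, which sets the precision of genes with low counts.

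The 48 gene lists, the chromosomes and the thresholds were chosen with earlier results of these data known. Named genes were the targeted gene, *Kmt2d* and *Kdm6a*, the 10 higher and 10 lower with the smallest p, the 5 with the largest change and the 5 most abundant in each direction, up to 3 per list and direction, the silent genes and the leading genes of the direct contrast. The genes ranked by p, by change and by abundance were taken from called genes whose KO and WT libraries do not overlap. Further members were named after their values were seen. Some genes that this rule names are not reported here. Replicate numbers come from the labels, and since every same-numbered pair of a WT and a *Kmt2c* KO library deviated together (correlations 0.601 to 0.655 of log2(CPM + 1) values), the fit with the replicate number as a block is given where it changes the call of a named gene or moves a count by over 1.5 times. Positions were taken by gene name from the GENCODE annotation of mm9, for 13090 tested genes. The fit was tested on simulated data with known changes in a small part of the genes and no effect shared by replicates. That check therefore does not cover changes as wide as those found here. Alternatives were DESeq2 1.42.0, its size factors, total counts, no filter on low counts, the 6 libraries alone, the block, each library left out, and stricter thresholds. Fits without *Rn45s*, without *Kmt2d* KO replicate 3 or without all libraries numbered 3, and fold changes relative to the chromosome median, were added after seeing the data.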

Additional observations from a re-analysis of the deposited data

How the results depend on the processing

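The total numbers of genes called in the main contrast stayed of the same order across the settings. Counts within some lists moved far more with the replicate block or with libraries left out. Mitotic, ATF4 and ribosomal protein genes are such lists, as given above. *Kmt2c* KO against WT gave 2445 higher and 2384 lower genes, and 2491 and 2350 with the size factors of DESeq2, 2326 and 2198 with total counts only, 2796 and 2556 with DESeq2, 2529 and 2370 with no filter, and 2350 and 2293 with the 6 libraries alone. Leaving out 1 library gave 2161 to 2965 higher and 2015 to 2628 lower genes. With the replicate block the counts were 2914 and 2723, and without all libraries numbered 3, a setting chosen after seeing the data, 3186 and 2940. At an adjusted p under 0.05 and a log2 fold change over 1, 1560 genes were lower. Single genes were followed across these settings only where the naming rule gave them, and none of those that were called changed sign. The fold change of *Col1a1*, which was not called, ran from -1.46 to 0.16 and passed as lower with the replicate block.

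The contrast with the *Kmt2d* KO (18 higher, 175 lower) was far less stable. It gave 8 and 33 with total counts only, where the median of all genes was 0.20, then 116 and 452 with DESeq2, 217 and 779 with the replicate block, 7 and 97 with the 6 libraries alone, 692 and 1051 without all libraries numbered 3, and 4 and 80 under the stricter thresholds. Leaving out 1 library gave 3 to 17 higher and 39 to 193 lower genes. The cause was not tested. Genes silent in 1 genotype numbered 2 and 3, and 106 and 49 at the looser limits. Among the genes given by the naming rule, calls lost in at least 6 of 15 settings were those of *Tpm2* (7), *Kif4* (7), *Pdk1* (7), *Wdr82* (10), *Rbbp7* (8), *Ndufs3* (11) and *Gata3* (6). The other called genes were not followed one by one. Depth limits statements on genes under about 0.1 CPM, which is a handful of reads per library.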
